A study of Rattus norvegicus with 24 samples.

Results

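Fads1, Fads2 and Elovl5 encode enzymes that make long-chain polyunsaturated fatty acids, and they were followed here in livers of male Sprague Dawley rats after α-naphthylisothiocyanate (ANIT), a compound that injures bile ducts and hepatocytes. Members were the probe sets whose platform annotation named only one of these 3 genes. Each gene had exactly 1 such probe set, 1367857_PM_at for Fads1, 1368453_PM_at for Fads2 and 1387630_PM_at for Elovl5, so the 3 probe sets were taken from 31139 on the array and the 3 genes from 13438 that could be tested. The rule used gene names and no threshold on these values, but the genes were picked with earlier results of these data known.

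The study had 4 groups of 6 rats, each liver hybridised to its own 1-colour array. ANIT rats received 1 dose of 50 mg/kg by gavage in corn oil and were killed 24 h later, the labelled time of peak injury, or 120 h later, the labelled time of resolution. Vehicle rats received corn oil alone in the same volume of 10 ml/kg and were killed at 24 h or 120 h. All 24 rats were 8 weeks old, had been fasted overnight for about 18 h, and had received 100 mg/kg of the label BrdU about 2 h before necropsy. Values were log2 expression values, in which a difference of 1 is a doubling of signal. The arrays had nearly equal means of 5.86 to 5.89 and standard deviations (SD) of 1.84 to 2.09. In 6 arrays the values had a narrower spread than in the others, namely those of 3 ANIT rats at 120 h and 3 vehicle rats at 24 h. The labelled tissue was checked on its markers: the mean level of 7 measured hepatocyte genes was 12.65 to 12.86 in every array, above the mean of each other cell type list.

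The essential fatty acids linoleic and α-linolenic acid are turned into arachidonic, eicosapentaenoic and docosahexaenoic acid by alternating desaturation and elongation in the endoplasmic reticulum. Fads2, the Δ-6 desaturase, catalyses the first and rate-limiting step, Elovl5 adds a pair of carbons to its product, and Fads1, the Δ-5 desaturase, makes arachidonic and eicosapentaenoic acid. The liver is a main site of the pathway, and all 3 genes are known to respond to the transcription factor SREBP-1c, to PPARα and to polyunsaturated fatty acids themselves.

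The start regions of the 3 genes are shown because the members moved together at the later time. All 3 were matched in RefSeq, build GRCr8, each as 250 bases before and 50 bases after the annotated start, and capitals mark a CCAAT box (CCAAT) or a GC box (GGGCGG) on either strand.
Fads1 promoter, chr1:216252442-216252741, plus strand: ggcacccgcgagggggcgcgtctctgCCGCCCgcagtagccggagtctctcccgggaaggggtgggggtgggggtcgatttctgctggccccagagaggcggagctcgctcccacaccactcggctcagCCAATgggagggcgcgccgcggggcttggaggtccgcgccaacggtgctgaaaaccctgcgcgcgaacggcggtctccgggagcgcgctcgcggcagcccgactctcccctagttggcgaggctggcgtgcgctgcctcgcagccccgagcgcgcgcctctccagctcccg
Fads2 promoter, chr1:216171984-216172283, minus strand: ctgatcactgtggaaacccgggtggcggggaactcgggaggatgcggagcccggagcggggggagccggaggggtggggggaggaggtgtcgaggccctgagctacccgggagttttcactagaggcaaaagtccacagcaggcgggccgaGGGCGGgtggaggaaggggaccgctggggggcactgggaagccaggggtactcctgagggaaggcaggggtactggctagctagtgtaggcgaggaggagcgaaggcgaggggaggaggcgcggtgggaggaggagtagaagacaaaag
Elovl5 promoter, chr8:87670914-87671213, plus strand: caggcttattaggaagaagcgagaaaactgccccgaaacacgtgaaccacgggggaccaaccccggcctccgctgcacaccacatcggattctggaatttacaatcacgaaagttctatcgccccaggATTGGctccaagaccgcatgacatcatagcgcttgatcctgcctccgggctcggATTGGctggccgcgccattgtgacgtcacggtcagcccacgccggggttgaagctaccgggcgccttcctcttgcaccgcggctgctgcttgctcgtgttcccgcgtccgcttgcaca

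The windows were rich in G and C, at 74.3% in Fads1, 67.3% in Fads2 and 60.3% in Elovl5, against a median of 51.7% over 33469 rat promoters. Fads1 held 1 CCAAT box on the forward strand with its first base at −121, counted from the start, and Elovl5 held 2 on the reverse strand at −122 and −68, while Fads2 held none. A CCAAT box occurred in 37.5% of all promoter windows. The GC box was found once in Fads1, on the reverse strand at −224, once in Fads2, on the forward strand at −99, and not in Elovl5, against 33.1% of all windows. The E-box letters CANNTG, which read alike on both strands, occurred once, in Elovl5 at −212, against 72.1% of all windows. The letters CACCCCAC, the core of the sterol regulatory element bound by SREBP, were in none of the 3 windows on either strand and in 2.70% of all windows. The search covered both strands of these 300 bases only, and none of the matches overlapped.

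At 120 h all 3 members fell by similar amounts after ANIT, and no ANIT rat reached the level of any vehicle rat. Fads1 was 2.71-fold lower, Elovl5 2.55-fold lower and Fads2 2.42-fold lower in ANIT livers than in vehicle livers. At 24 h the picture was different: Fads2 alone was called, 1.70-fold lower in ANIT livers, while Fads1 and Elovl5 did not pass the test. Calls rest on limma's moderated test with an adjusted p below 0.05, by the method of Benjamini and Hochberg across the 13438 genes.

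**Figure D1:**
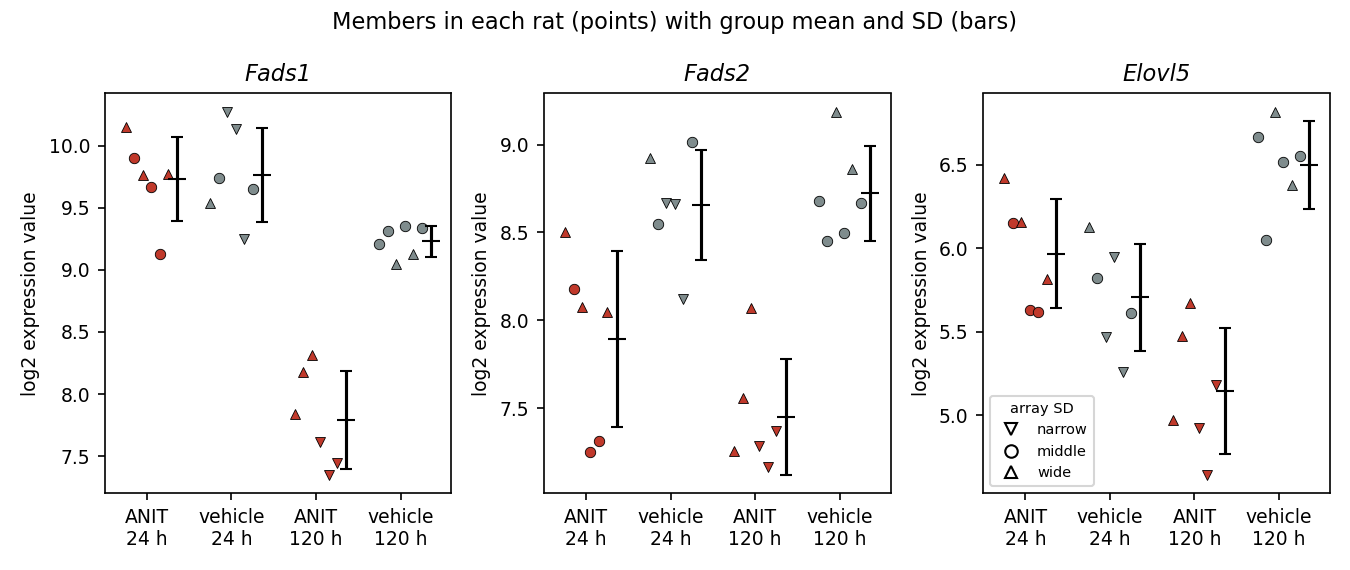
Log2 expression value of Fads1, Fads2 and Elovl5 in each rat (points; the symbol gives the array's SD band) with the group mean and SD (bars, n = 6). The 6 ANIT rats at 120 h lie below all vehicle rats at 120 h in each panel.

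Fads2, the entry enzyme, was lower in ANIT livers at both times. At 24 h its values ran from 7.25 to 8.50 with a median of 8.06 in ANIT livers, and from 8.12 to 9.02 with a median of 8.66 in vehicle livers. The groups overlapped, with 4 of 6 ANIT rats below every vehicle rat and 6 of 6 below the vehicle mean. The mean was 7.89 ± 0.50 in ANIT livers and 8.66 ± 0.32 in vehicle livers (SD, n = 6 each). This is a change of −0.76 ± 0.20 (SE, 95% interval −1.17 to −0.36, limma, adjusted p = 0.0074). In ANIT livers 2 rats, at 7.25 and 7.32, lay apart from the other 4, which were at 8.05 to 8.50. The arrays of these 2 rats also had the group's highest levels of the spiked controls, 11.19 and 11.03, against 10.56 to 10.75. They held its lowest Elovl5 values as well, 5.63 and 5.62. The share of the control level in this pair was not tested.

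Fads2 at 120 h ran from 7.17 to 8.07 with a median of 7.33 in ANIT livers, and from 8.45 to 9.19 with a median of 8.67 in vehicle livers. The groups did not overlap. The mean was 7.45 ± 0.33 in ANIT livers and 8.72 ± 0.27 in vehicle livers (SD, n = 6 each), a change of −1.27 ± 0.20 (SE; 95% interval −1.68 to −0.87; limma, adjusted p = 0.00067). The effect at 120 h minus that at 24 h was −0.51 ± 0.28 (SE; 95% interval −1.08 to 0.06; limma, adjusted p = 0.22), so an equal fall at both times and a larger one at 120 h both lie within the interval.

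Elovl5, the elongase that follows Fads2, was the dimmest member, and it lay 2.07 to 4.12 above the median of 23 nonspecific background probe sets on the same array. At 24 h its values ran from 5.62 to 6.42 with a median of 5.98 in ANIT livers, and from 5.26 to 6.13 with a median of 5.72 in vehicle livers. The groups overlapped, and the change of 0.26 ± 0.18 did not pass the test (SE; 95% interval −0.11 to 0.63; limma, adjusted p = 0.33). At 120 h the values ran from 4.64 to 5.67 with a median of 5.08 in ANIT livers, and from 6.05 to 6.82 with a median of 6.53 in vehicle livers. Here every ANIT rat was below every vehicle rat. The mean was 5.15 ± 0.38 in ANIT livers and 6.50 ± 0.26 in vehicle livers (SD, n = 6 each), a change of −1.35 ± 0.18 (SE; 95% interval −1.72 to −0.99; limma, adjusted p = 0.0001).

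Fads1, the last desaturase of the route to arachidonic acid, had the brightest probe set of the 3. At 24 h its values ran from 9.13 to 10.15 with a median of 9.77 in ANIT livers, and from 9.25 to 10.27 with a median of 9.70 in vehicle livers. The groups lay on top of each other, and the change was −0.03 ± 0.18 (SE; 95% interval −0.40 to 0.34; limma, adjusted p = 0.92). At 120 h the values ran from 7.35 to 8.32 with a median of 7.73 in ANIT livers, and from 9.04 to 9.35 with a median of 9.26 in vehicle livers. The groups were separated by a gap wider than the range of the vehicle group. The mean was 7.79 ± 0.39 in ANIT livers and 9.23 ± 0.12 in vehicle livers (SD, n = 6 each), a change of −1.44 ± 0.18 (SE; 95% interval −1.81 to −1.07; limma, adjusted p = 8.5e-05).

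All 3 members were thus among the called genes at 120 h, where 2.02% of the 13438 genes were called in either direction and 1.51% were called lower. By p-value Fads1 ranked 3, Elovl5 7 and Fads2 19 of all genes at that time. The members' median change was −1.35, against a median of −0.01 over all genes tested. Non-overlap in the lower direction, which all 3 members showed at 120 h, was seen in 1.58% of all genes. At 24 h 1 of 3 members was called, against 18.2% of all genes in either direction and 5.31% called lower, and the members' median change was −0.03. An exact permutation test over the 924 splits of 6 and 6 rats, two-sided, gave p = 0.0022 for each member at 120 h, the smallest value it can give, and 0.0043 after adjustment over the 6 tests. In the same test at 24 h p was 0.0087 for Fads2 (adjusted 0.013), 0.18 for Elovl5 (adjusted 0.21) and 0.90 for Fads1 (adjusted 0.90).

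A pair of technical measures varied between arrays and is given beside these changes. The first was the ratio of the 3′ to the 5′ beta-actin probe sets, a measure of RNA and cDNA integrity. It averaged 3.12 ± 0.07 in ANIT livers and 2.84 ± 0.05 in vehicle livers at 24 h without overlap. The averages at 120 h were 2.76 ± 0.15 in ANIT livers and 2.83 ± 0.08 in vehicle livers with overlap (log2, SD, n = 6 each). With this ratio as a covariate, the Fads2 change at 24 h was −0.88 with an adjusted p of 0.077 in limma. The call was lost with an SE of 0.29, against 0.20 without the covariate, and not with a smaller change. Ratio and treatment can hardly be told apart at 24 h, as the groups did not overlap in the ratio. The 3 changes at 120 h were −1.41 for Fads1, −1.24 for Fads2 and −1.28 for Elovl5, all still called. The share of the ratio in the 24 h result was not tested. With the level of the spiked controls as a covariate, Fads2 changed by −1.04 at 24 h (limma, adjusted p = 1.4e-05).

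At 120 h the narrow arrays were all from ANIT livers, and they held the 3 lowest Fads1 values. Without the 6 narrow arrays, the changes at 120 h were −1.12 for Fads1, −1.09 for Fads2 and −1.12 for Elovl5, with adjusted p-values in limma of 0.0027, 0.028 and 0.0066. Among the wide arrays alone, 3 from ANIT and 2 from vehicle livers, the differences were −0.98, −1.39 and −1.22 in the same order of genes. At 24 h the Fads2 difference was −1.20 among the middle arrays, 3 ANIT and 2 vehicle, and −0.72 among the wide arrays, 3 ANIT and 1 vehicle. Band values have no test, since so few arrays remain.

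**Figure D2:**
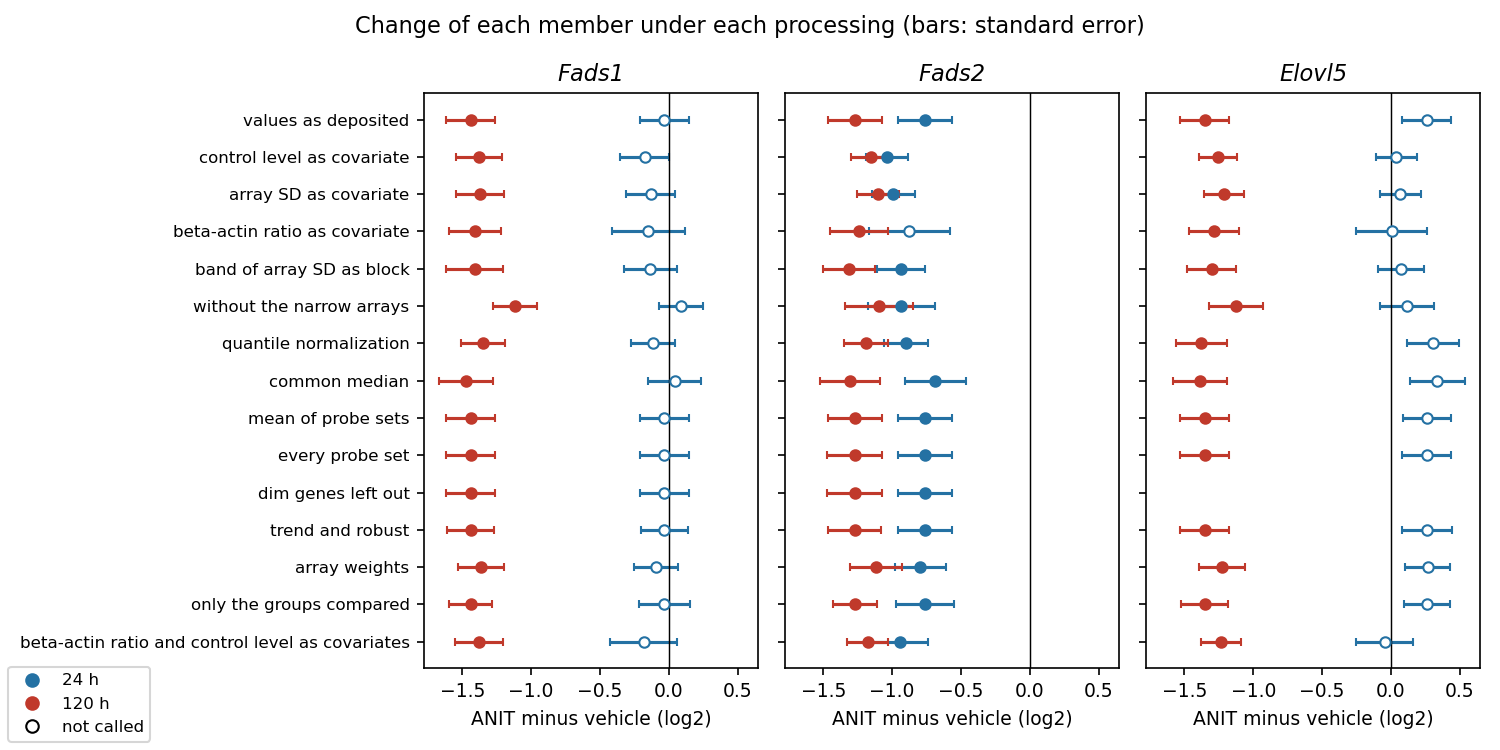
Change of each member in ANIT against vehicle livers at 24 h (blue) and 120 h (red) under each way of processing the values, in log2 with standard errors; open points are not called. All points at 120 h are filled and lie between −1.47 and −1.09, whereas at 24 h the filled points are those of Fads2, which is open once.

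The time of the fall was tested as the effect at 120 h minus the effect at 24 h. The difference was −1.41 ± 0.25 for Fads1 (SE; limma, adjusted p = 0.0005) and −1.61 ± 0.25 for Elovl5 (adjusted p = 0.00012), and both were called, as were 14.3% of all genes in either direction and 11.0% in the lower direction. With the beta-actin ratio as a covariate, the Fads1 difference was −1.26 with an adjusted p of 0.051, and the Elovl5 difference was −1.29 and was called with an adjusted p of 0.037. Each difference also takes in the vehicle livers of both times. Elovl5 averaged 5.97 at 24 h and 5.15 at 120 h in ANIT livers, and 5.71 and 6.50 in vehicle livers. Fads1 averaged 9.73 and 7.79 in ANIT livers, and 9.76 and 9.23 in vehicle livers.

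Between the vehicle livers of both times none of the 3 members was called. Elovl5 averaged 6.50 ± 0.26 in vehicle livers at 120 h and 5.71 ± 0.32 at 24 h, a difference of 0.79 ± 0.18 (SE; limma, adjusted p = 0.11, unadjusted p = 0.00015). Fads1 averaged 9.23 ± 0.12 in vehicle livers at 120 h and 9.76 ± 0.38 at 24 h, a difference of −0.54 ± 0.18 (adjusted p = 0.28, unadjusted p = 0.0061). Fads2 differed by 0.07 ± 0.20 (adjusted p = 0.88). In this contrast 0.00744% of all genes were called, that is 1 gene. Without vehicle rat 1 of the 24 h group, Elovl5 was called, with a difference of 0.87 and an adjusted p of 0.021. Time and any separate handling of the arrays of each time cannot be told apart, as the labels give no batch.

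Across the 4 groups the order of the means was therefore not the same for each gene. For Fads1 the ANIT and vehicle livers at 24 h stood highest and did not differ beyond their spread, vehicle livers at 120 h followed, and ANIT livers at 120 h were lowest, with no rat above 8.32 where the lowest rat of any other group was at 9.04. For Fads2 the vehicle livers of both times stood highest with overlapping ranges, ANIT livers at 24 h followed, and ANIT livers at 120 h were lowest, with a range that overlapped that of the ANIT rats at 24 h. For Elovl5 the order from the top was vehicle at 120 h, ANIT at 24 h, vehicle at 24 h and ANIT at 120 h, and each neighbouring pair in that order overlapped in range. Pairs that differ in both treatment and time were not tested.

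Whether the members changed equally was tested on the difference between pairs of members within each array, with an exact two-sided permutation test and adjustment over 18 tests. At 24 h Fads1 minus Fads2 differed by 0.73 between ANIT and vehicle livers, and Fads2 minus Elovl5 by −1.02, both without overlap of the rats (exact p = 0.0022, adjusted p = 0.0035 each). Fads1 minus Elovl5 changed by −0.29 at that time (exact p = 0.17, adjusted p = 0.20), but by −0.42 without vehicle rat 1 of the 24 h group (adjusted p = 0.032). At 120 h the 3 pairs changed by −0.17, −0.09 and 0.08, with adjusted p-values from exact permutation of 0.43, 0.62 and 0.50. So at 24 h Fads2 changed unequally with the other members, and at 120 h unequal change was not detected.

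A pair of genes from neighbouring lipid pathways was followed as a comparison, Fasn, which encodes fatty acid synthase, and Sqle, which encodes squalene epoxidase of cholesterol synthesis. Fasn averaged 10.36 ± 0.40 in ANIT livers and 7.60 ± 0.54 in vehicle livers at 24 h, a change of 2.76, and 7.28 ± 0.25 in ANIT livers and 7.04 ± 0.18 in vehicle livers at 120 h, a change of 0.24 that was not called. Sqle averaged 9.15 ± 0.30 in ANIT livers and 6.32 ± 0.48 in vehicle livers at 24 h, a change of 2.83, and 4.78 ± 0.21 in ANIT livers and 5.55 ± 0.39 in vehicle livers at 120 h, a change of −0.76 (limma, adjusted p = 0.039). The change of each member minus that of Fasn was −3.53 to −2.50 at 24 h and −1.68 to −1.51 at 120 h, each with an exact p of 0.0022 (adjusted p = 0.0035). The change minus that of Sqle was −3.59 to −2.57 at 24 h, with the same p-values. These differences at 24 h mainly hold the rise of Fasn and Sqle themselves, and gene lists were chosen with earlier results known. Their small p-values at 24 h are therefore no separate result on the members. The differences against Fasn at 120 h, where Fasn was not called, mainly hold the members' own falls. Their p-values are no separate result either. At 120 h the changes against Sqle were −0.68 for Fads1 (exact permutation, adjusted p = 0.049), −0.51 for Fads2 (adjusted p = 0.081) and −0.59 for Elovl5 (adjusted p = 0.092), and the Fads1 call was lost after quantile normalization with −0.56 (adjusted p = 0.078). Without single rats the adjusted p of Fads1 against Sqle ran from 0.013 to 0.094. Without vehicle rat 5 or ANIT rat 3 of the 120 h groups, Fads2 against Sqle (−0.63 and −0.66) and Elovl5 against Sqle (−0.76 and −0.72) passed, with adjusted p-values from exact permutation of 0.036, 0.024, 0.021 and 0.036 in that order. The Sqle call at 120 h was also lost without the narrow arrays, with −0.65 and an adjusted p of 0.16, with the beta-actin ratio as a covariate (−0.69, adjusted p = 0.088) and with a common median (−0.80, adjusted p = 0.058).

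**Figure D3:**
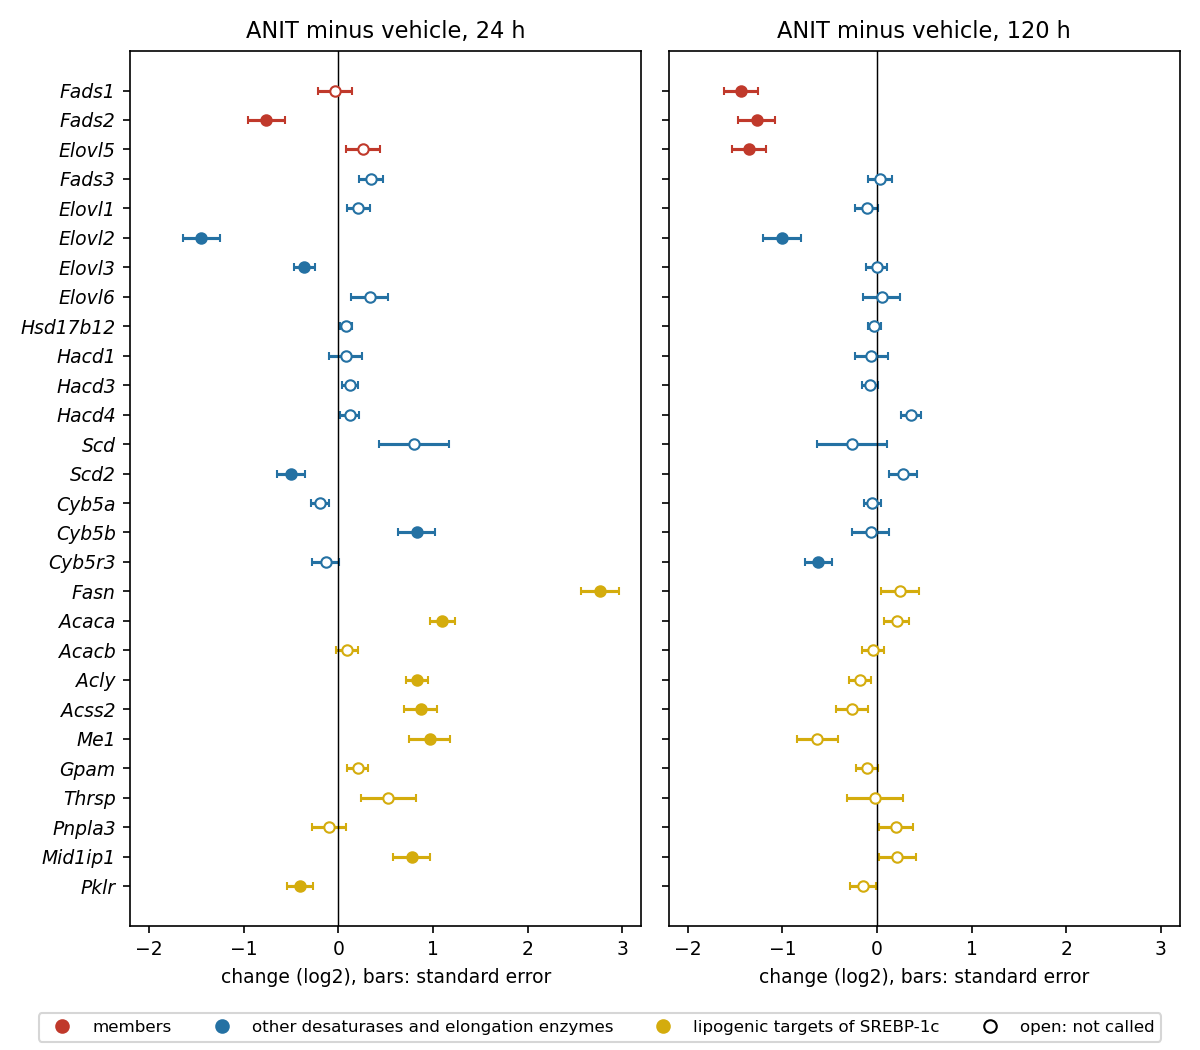
Change of the members (red), the other desaturases and elongation enzymes (blue) and the lipogenic targets of SREBP-1c (yellow) in ANIT against vehicle livers, in log2 with standard errors; filled points are called. At 24 h Fasn lies at 2.76 and Elovl2 at −1.45; at 120 h the 3 members lie at −1.44 to −1.27, and no lipogenic gene is called.

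Counts in this and the following lists stand beside the shares of all genes called. These were 18.2% at 24 h, with 5.31% lower, and 2.02% at 120 h, with 1.51% lower. The lists were chosen with earlier results known. Of the other desaturases, elongases and their partner enzymes, 14 of 19 were measured. At 120 h 2 fell, 0 rose and 12 were not called, with a median change of −0.05. Elovl2, the elongase that acts after Elovl5 on the way to docosahexaenoic acid, averaged 8.66 ± 0.24 in ANIT livers and 9.66 ± 0.28 in vehicle livers without overlap (SD, n = 6 each; limma, adjusted p = 0.0068). Cyb5r3, the cytochrome b5 reductase that feeds electrons to the desaturases, changed by −0.62 (adjusted p = 0.018), but by −0.49 without the narrow arrays, where it was not called (adjusted p = 0.12). Fads3, a further gene of the desaturase family, changed by 0.03, Elovl6, which elongates saturated chains, by 0.05 and Scd, the Δ-9 desaturase, by −0.26, and none of them was called. Hacd4, a dehydratase of the elongation cycle, was at 0.36 (adjusted p = 0.069), and with the spiked control level as a covariate it was at 0.35 and was called (adjusted p = 0.040).

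At 24 h 1 gene of this list rose, 3 fell and 10 were not called, with a median change of 0.10. Elovl2 averaged 7.89 ± 0.25 in ANIT livers and 9.34 ± 0.58 in vehicle livers, a change of −1.45 (limma, adjusted p = 7.3e-06), and with Fads2 it was lower at both times. Scd2, a Δ-9 desaturase, changed by −0.50, Elovl3, an elongase of saturated and monounsaturated chains, by −0.36 and Cyb5b, the cytochrome b5 of the outer mitochondrial membrane, by 0.83. With the beta-actin ratio as a covariate 1 gene of the list fell and 0 rose at 24 h. With the spiked control level as a covariate, 3 rose and 3 fell.

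A further list held the enzymes that activate polyunsaturated acids and hand them to lipids. Of 14 measured acyl-CoA synthetases and phospholipid acyltransferases of 17 listed, 2 rose and 3 fell at 24 h, and none of 14 was called at 120 h (limma), where 1 was lower at an unadjusted p under 0.05 and the changes ran from −0.76 to 0.17. Acsl1, a major long-chain acyl-CoA synthetase of liver, changed by −1.12 at 24 h. Slc27a2, a very-long-chain acyl-CoA synthetase, changed by −0.51 and Acsl4, which prefers arachidonic acid, by −0.44 at that time. Acsl3 changed by 1.01 and Mfsd2a, a carrier of docosahexaenoic acid as lysophospholipid, by 0.96, also at 24 h. At 120 h Mfsd2a was at −0.76 (adjusted p = 0.077), and it was called without the narrow arrays at −1.12 (adjusted p = 0.0068), with array SD as a covariate at −0.84 (adjusted p = 0.025) and with the spiked control level at −0.81 (adjusted p = 0.027). With the beta-actin ratio as a covariate 1 gene of the list rose and 2 fell at 24 h, and the calls of Acsl3 (0.77, adjusted p = 0.14) and Acsl4 (−0.32, adjusted p = 0.0505) were lost.

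Peroxisomes shorten the last intermediate to docosahexaenoic acid, and 8 of 13 genes of this step were measured. At 24 h 2 fell and 0 rose, Ehhadh, the bifunctional enzyme, with a change of −1.30 and Abcd3, a peroxisomal membrane transporter, with −0.34. Abcd3 was at −0.34 and was not called with the beta-actin ratio as a covariate (adjusted p = 0.057), so that 1 gene fell. Acox2, the branched-chain acyl-CoA oxidase, varied widely between rats, with a change of −1.16 that was not called (adjusted p = 0.16). At 120 h Ehhadh alone was called, with a change of −0.83 (limma, adjusted p = 0.0087), which became −0.69 without the narrow arrays (adjusted p = 0.086). Hsd17b4, the other bifunctional enzyme, changed by −0.16 at both times and was not called.

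Among 13 measured regulators of 14 listed, 3 rose and 1 fell at 24 h, and 3 rose and 3 fell after quantile normalization. Insig1, which holds SREBP in the endoplasmic reticulum and is itself an SREBP target, changed by 1.47, Srebf2, which encodes the SREBP of cholesterol synthesis, by 0.99 and Mlx, the partner of the carbohydrate response factor ChREBP, by 0.95. Insig2, its relative with a different control, changed by −0.68 at 24 h and by −0.38 at 120 h (limma, adjusted p = 0.038), and it was the 1 regulator of 13 called at 120 h; its call was lost without the narrow arrays (−0.32, adjusted p = 0.18), with the beta-actin ratio as a covariate (−0.33, adjusted p = 0.088) and with a common median (−0.41, adjusted p = 0.080). With that ratio Srebf2 at 24 h was at 0.53 and was not called (adjusted p = 0.24). Srebf1, which encodes SREBP-1, changed by 0.02 at 24 h and 0.13 at 120 h, and Ppara by 0.08 and −0.23, and neither was called at either time. Mlxipl, which encodes ChREBP, changed by 0.27 and −0.28 without a call. The probe sets of these genes measure transcript level and not the processed or ligand-bound protein.

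Of the 13 lipogenic targets of SREBP-1c, all measured and including Scd and Elovl6, 6 rose and 1 fell at 24 h with a median change of 0.77, against a median of 0.00 over all genes. Besides Fasn, Acaca changed by 1.10, Me1 by 0.96, Acss2 by 0.87 and Acly by 0.83, enzymes that supply malonyl-CoA, NADPH and acetyl-CoA. At 120 h none of 13 was called (limma), with 1 lower at an unadjusted p under 0.05, Me1, and a median change of −0.04. With the beta-actin ratio as a covariate 3 rose and 1 fell at 24 h.

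The eicosanoid enzymes use the products of the pathway, and 27 of 29 listed were measured. At 24 h 7 fell and 0 rose, among them Ephx2, the soluble epoxide hydrolase, with −1.76, Cyp4f4, an ω-hydroxylase, with −0.87, and the arachidonic acid epoxygenases Cyp2j4 with −0.70 and Cyp2c23 with −0.40. The count was 5 fallen and 0 risen with the beta-actin ratio as a covariate, and Cyp2c23 was then not called (−0.31, adjusted p = 0.12). Of all genes 5.31% were called lower at 24 h without a covariate. Ptgs2, the inducible cyclooxygenase, changed by 0.88 at 24 h without a call (adjusted p = 0.069), and by 1.35 with the spiked control level as a covariate, where it was called (adjusted p = 0.0005). Alox5, the 5-lipoxygenase, changed by −0.14 and was not called. At 120 h Ptges2, a prostaglandin E synthase, was at −0.56 (adjusted p = 0.17) and Tbxas1, thromboxane synthase, at 0.32 (adjusted p = 0.46), neither of them called. At that time 1 of 27 was called, the male-specific Cyp2c11, which averaged 10.80 ± 0.69 in ANIT livers and 11.99 ± 0.11 in vehicle livers, a change of −1.19 (limma, adjusted p = 0.0018).

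Fads1, Fads2 and Fads3 are neighbours in the rat genome, in the RefSeq order Rab3il1, Fads3, Fads2, Fads1, Fen1, Tmem258 and Myrf. Of 5 measured neighbours of the 8 listed, none was called at 120 h (limma), when Fads1 and Fads2 fell, none had an unadjusted p under 0.05, and their changes lay between −0.21 and 0.13. At 24 h Tmem258, a subunit of oligosaccharyltransferase, changed by 0.90 and Myrf, a membrane-bound transcription factor, by 0.76, and both were called, while Fen1 was at 0.32, Fads3 at 0.35 and Rab3il1 at −0.04. After quantile normalization 4 of these 5 genes were called higher at 24 h, Fen1 and Fads3 included, and without the narrow arrays Myrf was not called (0.38, adjusted p = 0.39), nor with the beta-actin ratio as a covariate (0.57, adjusted p = 0.37). Elovl5 lies on another chromosome.

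Bulk liver RNA cannot tell fewer cells of a type from less RNA per cell. At 120 h 0 of 7 hepatocyte markers were called (limma; 2 were lower at an unadjusted p under 0.05), with changes between −0.38 and 0.16, and the list's mean level was 12.66 to 12.75 in ANIT livers and 12.75 to 12.81 in vehicle livers. Single markers of this list averaged 12.08 to 13.22 in ANIT livers, near the highest value on any array, 13.50. Whether a fall is hidden so close to the top of the scale was not tested. Bile duct markers went in the opposite direction to the members at that time, with changes of 0.02 to 0.73. Of 8 markers 2 rose, Krt19 by 0.73 (limma, adjusted p = 0.0015) and Cftr by 0.49 (adjusted p = 0.037). The list's mean level was 4.97 to 5.23 in ANIT livers and 4.68 to 4.81 in vehicle livers. Of 7 macrophage markers 1 rose, Cd163 by 0.43. With a common median 1 bile duct and 0 macrophage markers were called at 120 h, and without the narrow arrays 2 and 0. The counts were 3 and 2 with array SD or the spiked control level as a covariate. Of 8 stellate cell and fibroblast markers 0 were called at 120 h (3 were higher and 1 lower at an unadjusted p under 0.05). With the spiked control level 2 of these rose, and after quantile normalization 3. With that control level 1 of 7 hepatocyte markers fell. At 24 h, when Fads2 was called, 3 of 7 neutrophil markers rose, and the list's mean level was 4.64 to 5.04 in ANIT livers and 4.29 to 4.77 in vehicle livers. Of 7 macrophage markers 2 rose, of 8 stellate cell and fibroblast markers 2 fell, of 7 lymphocyte markers 2 fell, and of 7 endothelial markers 1 rose and 2 fell. Lrat, the retinol-esterifying enzyme of stellate cells, changed by −1.25. Of 7 hepatocyte markers 1 rose, Fgb by 0.41, and 1 fell, Ahsg by −0.27, and the list's mean level was 12.65 to 12.83 in ANIT livers and 12.77 to 12.86 in vehicle livers. No macrophage or endothelial marker was called at 24 h with the beta-actin ratio as a covariate, and 2 neutrophil markers rose. Their part in the members' changes was not tested.

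Rats with high Fads2 also had high Elovl5. Over 24 rats, as deviations from the group means, Pearson's r of Fads2 and Elovl5 was 0.79 and Spearman's rho 0.78 (permutation, adjusted p = 0.00012 for r, over 6 relations), and r was 0.71 without the 2 rats farthest from the median of Fads2. Fads1 correlated less, with r = 0.54 and rho = 0.41 for Fads2 and r = 0.53 and rho = 0.46 for Elovl5 (permutation, adjusted p = 0.021 and 0.023 for r, 0.076 and 0.073 for rho), and without 2 rats r was 0.35 and 0.41. The spiked control level correlated with Fads2 at r = −0.72 and with Elovl5 at −0.65, with an adjusted p of 0.00021 and 0.0056 (permutation), and with Fads1 at −0.41, which did not pass (adjusted p = 0.097). After quantile normalization these values were −0.45 for Fads2 (adjusted p = 0.055), −0.67 for Elovl5 (adjusted p = 0.0092) and −0.09 for Fads1 (adjusted p = 0.70). Given that level, r was 0.61 for Fads2 and Elovl5 (permutation, adjusted p = 0.012) and 0.38 for each of the other pairs (adjusted p = 0.082), so those pairs no longer passed.

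Within single groups of 6 rats the 12 relations were tested by exact permutation, with no test of a difference between groups. In ANIT livers r of the 3 pairs was 0.82 to 0.92 at 24 h and 0.83 to 0.91 at 120 h, and Fads2 with Elovl5 passed at both times (exact permutation, adjusted p = 0.033 each), while the other 4 relations had adjusted p-values of 0.05 to 0.062. In vehicle livers at 24 h r was 0.31 for Fads1 and Fads2, 0.19 for Fads1 and Elovl5 and 0.60 for Fads2 and Elovl5, and none passed (exact permutation, adjusted p from 0.26 to 0.70). In vehicle livers at 120 h Fads1 and Fads2 ran in opposite directions, with r = −0.92 (exact permutation, adjusted p = 0.039 over 12 relations) and rho = −0.83 (adjusted p = 0.12), over a Fads1 range of 9.04 to 9.35; without 2 rats r was −0.52. In the same group r was 0.67 for Fads2 and Elovl5 (exact permutation, adjusted p = 0.22) and −0.48 for Fads1 and Elovl5 (adjusted p = 0.42), and without 2 rats that of Fads2 and Elovl5 was −0.48. No rho in any group passed adjustment (adjusted p from 0.12 to 0.92). At 120 h in ANIT livers the Fads1 relations fell to r = 0.13 with Fads2 and 0.30 with Elovl5 without 2 rats, so they rest on those rats. Within the bands of array SD, after removing the group means in each band, r of Fads2 and Elovl5 was 0.73 in the narrow, 0.63 in the middle and 0.90 in the wide arrays, none of which passed adjustment over 9 relations (permutation, adjusted p from 0.25 to 0.34). For Fads1 and Fads2 it was 0.95, 0.53 and 0.84, and for Fads1 and Elovl5 0.55, 0.46 and 0.77, none of which passed (adjusted p from 0.25 to 0.65).

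**Figure D4:**
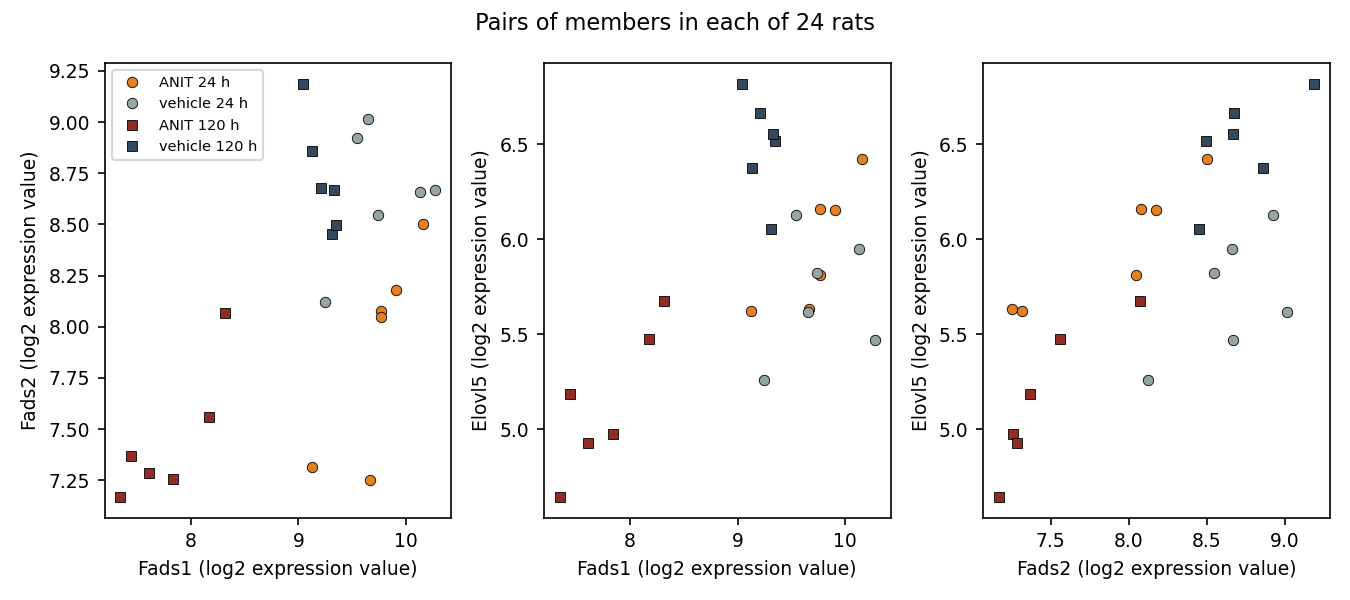
Each pair of members in each of the 24 rats, in log2 expression values, by group. ANIT rats at 120 h (dark red squares) lie at the lower left of each panel, and ANIT rats at 24 h (orange circles) lie low in Fads2 but not in Fads1 or Elovl5.

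The genes most like each member over the 24 rats were picked by the highest Pearson r of levels, as a description. For Fads1 they were Hdhd3 with r = 0.92, Nsdhl, a dehydrogenase of cholesterol synthesis, with 0.90 and Tkfc with 0.89. For Fads2 they were C8g, a complement component, with 0.87, Msrb2 with 0.85 and Slc26a1, a sulfate transporter, with 0.84. For Elovl5 they were Ubr2 with 0.87, Tmem209 with 0.85 and Scamp3 with 0.83. All 9 were called lower in ANIT livers at 120 h, with changes from −0.96 to −0.37; r of levels takes in the differences between groups, so that count is no separate result.

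By deviations from the group means, which set aside the group differences, the nearest genes were Trim29, Acrbp and C8g for Fads1 (r = 0.78 to 0.76), Mterf2, Xpo5 and Dpf2 for Fads2 (r = 0.84 to 0.82) and Myg1, Pus1 and Itgae for Elovl5 (r = 0.83 to 0.81). Among the 13437 other genes Elovl5 ranked 13 for Fads2 by this measure and Fads2 ranked 6 for Elovl5, while Fads2 ranked 130 and Elovl5 144 for Fads1. In the other direction Fads1 ranked only 2556 for Fads2 and 2145 for Elovl5, so many genes followed these members more closely than Fads1 did. The points share the arrays and their spread of values.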

How the data were processed

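Liver RNA of 24 rats, 6 in each of 4 groups given by the labels, had been amplified and biotin-labelled with NuGEN kits, per the labels' protocols. The authors deposited log2 expression values per probe set, made with RMA in Partek per the submitters' processing notes; RMA shrinks differences of dim probe sets. No label names a scan date or a batch. Probe sets were named from the platform annotation: 19068 of 31139 named 1 gene, 573 several and 11498 none, and the brightest probe set stood for each of 13438 genes. The members and gene lists were chosen with earlier results of these data known.

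The 4 groups were fitted together as group means in limma 3.58.1 (R 4.3.3), with Benjamini-Hochberg adjustment over all genes and a threshold of 0.05, and the fit was tested on simulated data. For ANIT minus vehicle at 24 h it recovered 90% of simulated log2 changes of 1 and 50% of those of 0.5, with 8 false calls. A gene that was not called may therefore still have changed by such an amount. Single values were tested by exact permutation of rats in Python 3.11.15, and correlations by 100000 permutations within groups. Named genes were the members, the 4 genes with the smallest p at each time from each pathway list, 10 further genes listed for their roles, and the 3 genes most like each member. Bands of array SD (narrow 6, middle 9 and wide 9 arrays) were defined from the files. No depth applies to arrays; their number limits the precision. Alternatives were array covariates, left-out arrays, other normalizations, probe-set rules and weights.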

Additional observations from a re-analysis of the deposited data

Results flagged for a closer look

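The ANIT effect on Fads1 differed between the times by −1.41 (effect at 120 h minus effect at 24 h, an interaction term in limma), with changes of −1.44 at 120 h and −0.03 at 24 h. The ANIT effect on Elovl5 differed by −1.61 in the same test, with changes of −1.35 at 120 h and 0.26 at 24 h. This value also holds the vehicle livers, in which Elovl5 was 0.79 higher at 120 h than at 24 h without a call. In the 12 groups of 6 values, 4 for each member, no single rat stood apart from the rest by Dixon's 95% criterion. That criterion looks for 1 outlying value and cannot flag 2 that lie close together. The 2 low Fads2 values in ANIT livers at 24 h, 7.25 and 7.32, are such a case.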

How the results depend on the processing

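At 120 h Fads1, Fads2 and Elovl5 were lower and called under every alternative that gave a value, 14 for Fads1 and Fads2 and 13 for Elovl5, which was too dim for the fit without dim genes, and without each rat in turn: −1.47 to −1.12 for Fads1, −1.31 to −1.09 for Fads2 and −1.39 to −1.12 for Elovl5 across alternatives. Without single rats the ranges were −1.54 to −1.35, −1.40 to −1.18 and −1.46 to −1.25. Each member had 1 probe set, so the mean of probe sets and the fit over every probe set repeat its change by construction. The change also stays the same without dim genes, with a trended and robust fit and with only the groups compared. In these alternatives only the SE and the adjusted p could move. With the beta-actin ratio as a covariate, Fads2 at 24 h was −0.88 (adjusted p = 0.077) and the Fads1 difference between times −1.26 (adjusted p = 0.051); with that ratio and the control level together, chosen after seeing the data, they were −0.95 (adjusted p = 0.0030) and −1.19 (adjusted p = 0.023). Without single rats Fads2 at 24 h was −0.88 to −0.63 and called each time. The Elovl5 difference between vehicle groups was called with array weights (0.76) and without 1 rat, in a range of 0.70 to 0.88. Fads1 against Sqle at 120 h was −0.56 after quantile normalization and −0.84 to −0.57 without single rats, Fads2 against Sqle −0.66 to −0.40, Elovl5 against Sqle −0.76 to −0.49, and Fads1 against Elovl5 at 24 h −0.42 to −0.14. Given the control level, the correlations of Fads1 were 0.38 with both other members; after quantile normalization they were 0.43 with Fads2 and 0.44 with Elovl5, and that of the control level with Fads2 was −0.45. The cause of these shifts was not tested. Genes called numbered 2451 at 24 h (907 with the beta-actin ratio, 1554 without the narrow arrays, 3687 over every probe set), 272 at 120 h (143 with a common median, 176 with only the groups compared, 460 after quantile normalization, 627 with both covariates, 652 with array SD, 674 with the control level, and 152 to 343 without single rats), 1924 for the difference (438 with the ratio, 852 without the narrow arrays, 1137 with both covariates, 3148 without vehicle rat 1 at 24 h) and 1 between vehicle groups (0 to 149, and 1 to 175 without single rats). Of the results on members, 685 alternative values stayed on the same side of the threshold, 18 lost a call and 7 gained one. These counts include the alternatives that repeat the change by construction. No called value changed sign; 17 values of 4 results that were not called did, among them Fads1 at 24 h (−0.18 to 0.09 across alternatives), Elovl5 at 24 h (−0.05 to 0.34) and the Fads2 difference between vehicle groups (−0.19 to 0.12), and the last was Fads1 against Elovl5 at 120 h (0.03 after quantile normalization). No paired analysis was possible because the labels give no replicate numbers that groups share. Signal over background limits Elovl5 most.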
